A study of Daphnia magna with 48 samples.

Results

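A group of 50 transcripts that stood higher in Daphnia magna with arsenic than without it on day 1 of exposure is followed here over days 2 and 4. Daphnia magna is the water flea, a planktonic crustacean of fresh waters that serves as a standard test animal in ecotoxicology. The members were chosen by the day-1 libraries: they are the 50 genes with the highest equal-variance two-sample t of log2(CPM + 1) between the 8 day-1 libraries with arsenic and the 8 without it, where CPM is counts scaled to a library total of 1000000. They were taken from 10454 genes with a mean level from 5 to under 1000 CPM and a median of 1 CPM or more, out of 16066 genes in the table. The day-1 values are therefore given as a description only, and the tests use days 2 and 4.

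RNA from whole bodies was sequenced in 48 libraries, 4 for each of 4 treatments on each of days 1, 2 and 4. The controls received neither metal, the copper animals copper alone, the arsenic animals arsenic alone, and the mixture animals both metals together. Every group came from a field population kept in M4 medium, a defined culture medium for daphnids, under a light and dark cycle with daily feeding. The sources used here give no doses, no chemical form of arsenic, no age and no number of animals per library, so a departure of the mixture from its parts is no test of additivity by dose.

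Trivalent arsenic binds thiol groups in proteins and in glutathione, and arsenic exposure is known to cause oxidative stress and protein damage in animal cells. Animals answer it with glutathione-dependent conjugation and export, antioxidant enzymes, metal-binding metallothioneins and heat shock proteins that refold damaged proteins. Copper is an essential metal that becomes toxic in excess and is bound by the same metallothioneins. The identifiers in the table could not be tied to these classes. All 16066 begin with Dapma7bEVm, and 0 matched the reference gene table, so the 50 genes are described by identifier, without a name, role, position or sequence. For the same reason it is unknown which of the genes named below share reads with near-identical copies or overlap another gene, and each carries that uncertainty.

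Libraries held 7.93 M to 20.1 M counts (M, mega; median 13.3 M), and between 36 and 479 genes were at 0 in each. In bulk RNA, fewer cells of a type and less RNA per cell cannot be told apart. Whether the 4 libraries of each group stem from different cultures is not stated in the labels, and every p-value covers only their spread, which could be technical. Some libraries stood apart. Control replicate 4 of day 1 had the 479 genes without a count and lay at -40.4 on the first principal component of that day, below the other 15 libraries. Mixture replicates 1 and 2 of day 2 lay at -30.8 and -28.8 on the first component of day 2, where the other 14 libraries reached no lower than -15.3. On the first component of day 4, arsenic replicates 3 and 4 lay at 31.1 and 28.1, and the next library at 13.5. Each was left out in turn, but no alternative fit of day 4 left out both. On day 4, 2 of the controls (replicates 1 and 4) and the first mixture replicate together held over 80% of the summed CPM of 10 genes, none of them among the 50, whose highest such share was 10.7% against 6.25% for an even spread.

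On day 1 the 50 genes differed by modest amounts. The difference in mean log2(CPM + 1) between libraries with and without arsenic had a median of 0.34 and ran from 0.13 to 1.14; it exceeded 0.5 for 12 genes and 1 for 2 genes. Arsenic alone lay above control and the mixture lay above copper for all 50 genes, with medians of 0.33 and 0.34. Copper against control had a median of 0.01 over the same genes, 29 of them above 0. The t of the members ran from 6.06 to 2.91. Dapma7bEVm018536t1 was the last gene inside, and Dapma7bEVm000022t1, with a t of 2.89, was the first outside. In the opposite direction, 35 genes had a t of -2.91 or lower. The members had a median mean level of 44.9 CPM, against 33.3 CPM over the 10454 genes, with 14 genes under 20 CPM and 13 at 100 CPM or more. The levels of the most and the least abundant members were far apart, with a mean over the 48 libraries of 287 CPM for Dapma7bEVm015247t1, 239 CPM for Dapma7bEVm001116t1, 5.03 CPM for Dapma7bEVm011472t1 and 5.03 CPM for Dapma7bEVm016398t1. CPM is not corrected for transcript length, so these 4 values do not order the genes by the number of molecules.

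The mean log2(CPM + 1) of the 50 genes put the arsenic libraries of day 1 apart, as the choice required. It was 5.03 ± 0.09 (SD, n = 4) in control, 5.06 ± 0.09 in copper, 5.43 ± 0.06 in arsenic and 5.45 ± 0.08 in the mixture. Single libraries ran from 4.90 to 5.13 without arsenic and from 5.34 to 5.51 with it. The lowest value, 4.90, belonged to control replicate 4, the library that stood apart that day; when the genes were chosen again without it, 38 of the 50 stayed in the list. On day 2 the same mean was 5.33 ± 0.06 in control, 5.28 ± 0.09 in copper, 5.28 ± 0.06 in arsenic and 5.21 ± 0.13 in the mixture. The lowest libraries of day 2 were mixture replicates 2 and 1, at 5.10 and 5.14. By day 4 it had come to 5.33 ± 0.09 in control, 5.36 ± 0.05 in copper, 5.41 ± 0.12 in arsenic and 5.40 ± 0.10 in the mixture. On both later days the ranges of all 4 treatments overlapped, and the libraries without arsenic stood above their day-1 counterparts.

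**Figure D1:**
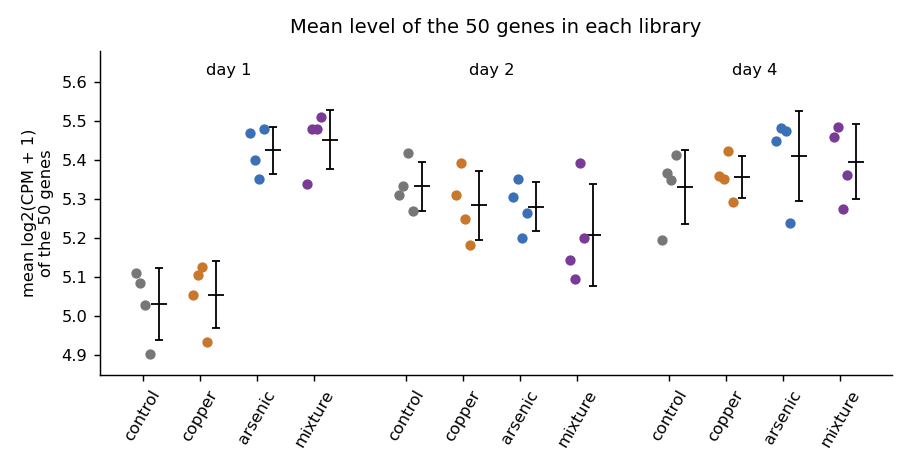
Mean log2(CPM + 1) of the 50 genes (vertical axis) in each of the 48 libraries, by treatment and day; points are libraries, and the bar beside them is the mean ± SD of 4. Arsenic and mixture libraries of day 1 lie at 5.34 to 5.51 and the control and copper libraries at 4.90 to 5.13, whereas the treatments overlap on days 2 and 4.

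For each gene, the 6 combinations of day and arsenic were ordered by their mean. The lowest was that of the day-1 libraries without arsenic for 37 genes. The highest was that of the day-1 libraries with arsenic for 18 genes, of the day-4 libraries with arsenic for 15, and of 1 of the other 4 combinations for 17. The low level without arsenic and the high level with it on day 1 are part of what chose the genes. Nothing is therefore read from the 37 and the 18, and neither level was tested against the later days.

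**Figure D2:**
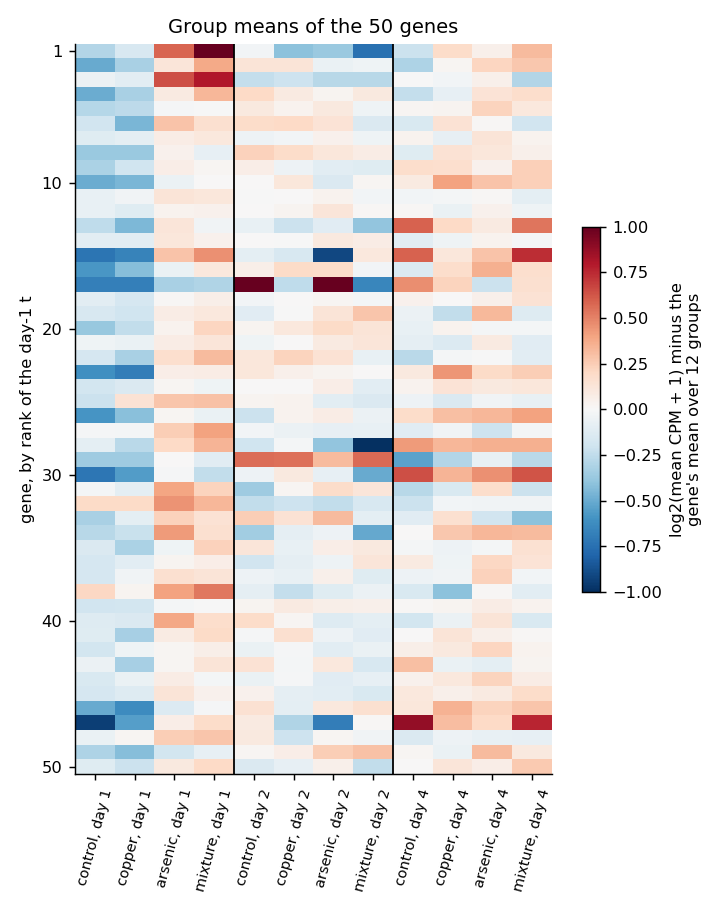
Group means of the 50 genes, one row per gene in the order of the day-1 t from rank 1 at the top, one column per treatment and day; colour is log2(mean CPM + 1) minus the gene's mean over the 12 groups, from -1 (blue) to 1 (red), with more extreme values drawn at the end colours. The first 2 columns, control and copper of day 1, are blue for most genes, and no column of day 2 or 4 repeats the red of arsenic and mixture on day 1 over the whole list.

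Dapma7bEVm002921t1 had the highest day-1 t. Its day-1 level was 98.3, 134, 97.0 and 75.4 CPM in the control libraries and 119.7, 142, 91.7 and 89.2 CPM in the copper libraries. It was 192, 215, 124 and 212 CPM in the arsenic libraries and 228, 278, 248 and 305 CPM in the mixture libraries. Every mixture library exceeded every other library of the day, whereas arsenic replicate 3 lay below the highest control and the highest copper library. By day 2 the order had turned over, with 130.1, 125, 138 and 92.6 CPM in control and 60.1, 54.1, 98.9 and 80.4 CPM in the mixture. Copper (123.8, 76.7, 86.4 and 84.2 CPM) and arsenic (115, 91.4, 111 and 64.7 CPM) lay between them and overlapped both. The fitted log2 fold change of arsenic against no arsenic on day 2 was -0.35 (SE 0.16, edgeR quasi-likelihood test, adjusted p = 0.487), so the lower level did not pass the test. On day 4 the gene read 90.6, 104, 100.4 and 131 CPM in control, 113, 149, 121 and 181 CPM in copper, 126, 153, 131 and 104 CPM in arsenic and 195, 169, 104 and 151 CPM in the mixture. The groups overlapped, and the fitted log2 fold change was 0.15 (SE 0.15, edgeR adjusted p = 0.792).

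Dapma7bEVm000727t1 had the second highest t. On day 1 it stood at 119.6, 141, 122 and 129.6 CPM in control, 163, 145, 155 and 119 CPM in copper, 232, 227, 146 and 186 CPM in arsenic and 229.6, 243, 242 and 233 CPM in the mixture. The mixture libraries lay close together above all control and copper libraries, and arsenic replicate 3 again fell among them. On day 2 its level was 196, 230.1, 181 and 189.6 CPM in control and 208, 162, 224 and 199.96 CPM in copper. Arsenic read 192, 154, 169.8 and 177 CPM and the mixture 188, 148, 202 and 167 CPM. The fitted log2 fold change of arsenic on day 2 was -0.21 (SE 0.09, edgeR adjusted p = 0.498), and the groups overlapped. Day 4 gave 0.33 (SE 0.09, edgeR adjusted p = 0.635), the highest estimate among the 50 genes that day. The day-4 values were 123, 149, 166 and 149 CPM in control, 186, 182, 176 and 195 CPM in copper, 208, 188, 255 and 193 CPM in arsenic and 299.8, 213, 190.0 and 175 CPM in the mixture. All copper, arsenic and mixture libraries exceeded all 4 controls, and mixture and copper overlapped.

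A fit of all 48 libraries gives the background of the choosing contrast: 4 of 15813 genes were called higher on day 1 with arsenic (0.0253%) and 1 was called lower (0.00632%). The 4 are members, and since the rule used the same contrast nothing is read from this. Their fitted log2 fold changes were 1.08 (SE 0.16) for Dapma7bEVm002921t1, 0.68 (SE 0.09) for Dapma7bEVm000727t1, 0.84 (SE 0.14) for Dapma7bEVm015213t1 and 0.63 (SE 0.10) for Dapma7bEVm015247t1. Dapma7bEVm015213t1 is named after its values were seen. Its day-1 level was 34.1 ± 3.05 CPM in arsenic and 38.0 ± 9.68 CPM in the mixture against 20.6 ± 5.38 CPM in control and 19.9 ± 3.65 CPM in copper (SD, n = 4). On days 2 and 4 its group means lay between 17.3 and 22.2 CPM in all 8 groups, and the fitted log2 fold changes of arsenic were -0.08 (SE 0.14, edgeR adjusted p = 0.894) and -0.17 (SE 0.14, edgeR adjusted p = 0.724).

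**Figure D3:**
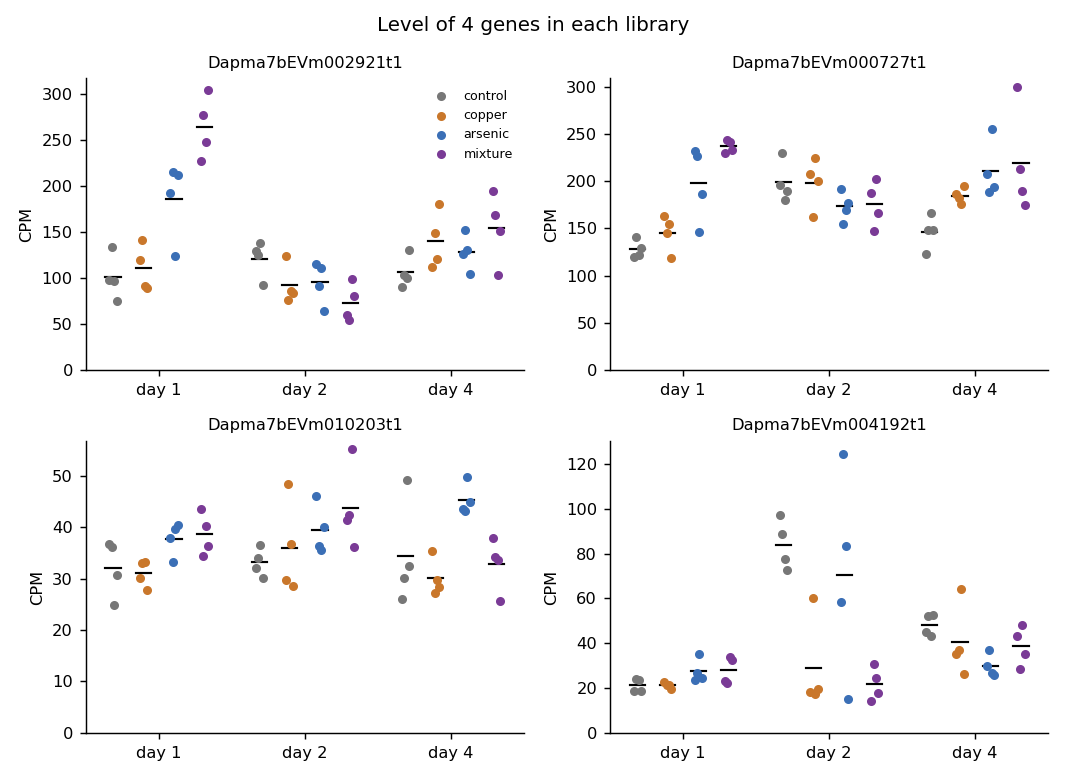
Level in CPM (vertical axis, linear, from 0) of 4 genes in every library by day and treatment; points are libraries and the short lines are the means of 4. Dapma7bEVm002921t1 and Dapma7bEVm000727t1 have higher group means with arsenic than without it on day 1, and on day 4 their arsenic and mixture libraries overlap with the copper libraries, Dapma7bEVm010203t1 overlaps between treatments on day 2 while its day-4 arsenic libraries lie above copper and mixture and overlap with control, and Dapma7bEVm004192t1 is low in 7 of the 8 day-2 libraries with copper.

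The first question put to the later days was whether the 50 genes still differed between animals with and without arsenic. All 50 passed the filter on low counts, with 15459 genes tested. On day 2, edgeR's quasi-likelihood test with Benjamini-Hochberg adjustment called 0 of the 50 genes in either direction. The background was also 0 of 15459 genes (0%), with 1470 genes (9.51%) at an unadjusted p under 0.05. By DESeq2 37 genes were called and by limma 0, none of them members. The fitted log2 fold changes of the members ran from -0.65 to 0.33 with a median of -0.08, and 16 of 50 were above 0, against a median of -0.003 and 49.3% above 0 over all genes tested. At an unadjusted p under 0.05, 4 members were higher and 5 lower, where the share over all genes was 4.54% higher and 4.97% lower. The lowest adjusted p of a member was 0.323.

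Day 4 gave the same count: the test called 0 of the 50 genes and 0 of 15459 genes (0%), with 1208 genes (7.81%) at an unadjusted p under 0.05. Among 2 genes called by DESeq2 and 0 by limma there was no member. The members' fitted log2 fold changes ran from -0.44 to 0.33 with a median of 0.02, and 28 of 50 were above 0, against a median of 0.001 and 50.4% over all genes. At an unadjusted p under 0.05, 3 members were higher and 1 lower, against 3.79% and 4.02% of all genes. The lowest adjusted p of a member was 0.635. The median SE of a member's log2 fold change was 0.11 on each day.

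Between the later days the estimates followed no single direction. Of the 50 genes, 12 were fitted above 0 on both days, 4 on day 2 only, 16 on day 4 only and 18 on neither. The change of the arsenic effect from day 2 to day 4 was called for 0 of the 50 genes and 0 of all genes (0%), with 506 genes (3.27%) at an unadjusted p under 0.05, 4 of them members and all 4 higher on day 4, where 1.69% of all genes were higher at that threshold. DESeq2 and limma also called 0 genes. Among the members, Dapma7bEVm000727t1 had the lowest adjusted p for this change, with a log2 difference of 0.53 (SE 0.13, edgeR adjusted p = 0.751).

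**Figure D4:**
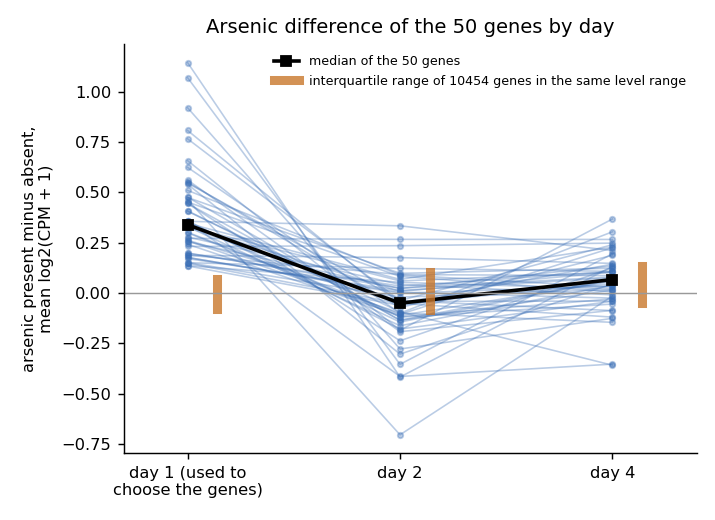
Difference in mean log2(CPM + 1) between the 8 libraries with and the 8 without arsenic (vertical axis) on days 1, 2 and 4, one thin line per gene, with the median of the 50 genes in black and the interquartile range of the 10454 genes of like level as an orange bar. All 50 genes lie above 0 on day 1, which chose them; on day 2 19 lie above 0 with a median of -0.05, and on day 4 36 lie above 0 with a median of 0.07.

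The counts above 0 differed between the fits and the unscaled levels. On the unscaled log2(CPM + 1) of the plotted differences, 36 of 50 genes lay above 0 on day 4, but so did 65.1% of the 10454 genes of like level, whose median was 0.05. On day 2, 19 of 50 lay above 0, against 56.1% of those genes. In the TMM-scaled fits the same 10454 genes had a median of 0.003 on day 2, with 51.1% above 0, and of 0.007 on day 4, with 52.4% above 0.

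The highest estimates of day 2 belonged to Dapma7bEVm010103t1 and Dapma7bEVm010203t1. Dapma7bEVm010103t1 stood at 9.84, 10.9, 13.8 and 11.2 CPM in control, 16.1, 19.3, 15.1 and 10.02 CPM in copper, 14.8, 17.6, 14.3 and 21.6 CPM in arsenic and 18.8, 16.0, 15.4 and 15.3 CPM in the mixture. All arsenic and mixture libraries exceeded all controls, but the copper libraries covered nearly the same range. Its fitted log2 fold change of arsenic was 0.33 (SE 0.11, edgeR adjusted p = 0.404). Dapma7bEVm010203t1 read 32.1, 34.0, 36.6 and 30.02 CPM in control, 29.7, 48.4, 36.8 and 28.6 CPM in copper, 46.0, 36.4, 35.5 and 39.97 CPM in arsenic and 41.4, 42.3, 55.2 and 36.2 CPM in the mixture. Copper replicate 2 lay above all but 1 of the libraries with arsenic, and the log2 fold change was 0.25 (SE 0.11, edgeR adjusted p = 0.487).

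The lowest estimates of day 2 belonged to Dapma7bEVm011559t1 and Dapma7bEVm014913t1. Dapma7bEVm011559t1 stood at 86.5, 99.7, 128 and 87.1 CPM in control, 144, 123, 107 and 81.6 CPM in copper, 74.2, 121, 29.96 and 123 CPM in arsenic and 52.3, 45.2, 83.1 and 42.8 CPM in the mixture. Arsenic replicates 1 and 3 and mixture replicates 1, 2 and 4 lay below every library without arsenic, and the other 3 libraries with arsenic overlapped with them. Its log2 fold change was -0.65 (SE 0.19, edgeR adjusted p = 0.323). Dapma7bEVm014913t1, a gene of low level, read 6.73, 5.85, 7.03 and 6.88 CPM in control, 11.2, 8.02, 5.86 and 4.61 CPM in copper, 7.99, 6.50, 6.29 and 4.96 CPM in arsenic and 4.20, 3.57, 6.30 and 4.19 CPM in the mixture. The groups overlapped and the log2 fold change was -0.39 (SE 0.16, edgeR adjusted p = 0.471).

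On day 4, Dapma7bEVm015247t1 had the second highest estimate after Dapma7bEVm000727t1. It stood at 197, 251, 252 and 258 CPM in control, 274, 261, 256 and 278 CPM in copper, 294, 313, 367 and 272 CPM in arsenic and 422, 326, 267 and 264 CPM in the mixture. All arsenic and mixture libraries exceeded all controls, whereas mixture and copper overlapped, and the log2 fold change of arsenic over both pairs was 0.26 (SE 0.10, edgeR adjusted p = 0.636). The lowest estimates were those of Dapma7bEVm004192t1, at -0.44 (SE 0.28, edgeR adjusted p = 0.67), and Dapma7bEVm016398t1, at -0.42 (SE 0.16, edgeR adjusted p = 0.636). Dapma7bEVm016398t1 had 4.00, 4.17, 5.23 and 4.58 CPM in control, 6.35, 5.69, 5.63 and 4.95 CPM in copper, 5.38, 4.60, 2.85 and 4.03 CPM in arsenic and 1.70, 4.52, 3.16 and 4.56 CPM in the mixture. Its mixture libraries lay below its copper libraries without overlap, and its arsenic and control libraries overlapped.

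On the unscaled log2(CPM + 1), 5 genes had differences on both later days of at least 50% of their day-1 difference. Among them were Dapma7bEVm010203t1, Dapma7bEVm011115t1 and Dapma7bEVm010103t1. The day-1 difference chose the genes and no share over other genes was computed, so nothing is read from this count. The unscaled difference of Dapma7bEVm010203t1 was 0.27 on day 1, 0.27 on day 2 and 0.27 on day 4. Its TMM-scaled log2 fold changes fell from 0.28 on day 1 to 0.25 on day 2 and 0.20 on day 4. Within its day-4 value, the unscaled difference was 0.42 for arsenic against control and 0.11 for the mixture against copper. On the TMM-scaled fits, Dapma7bEVm010103t1 had log2 fold changes of 0.39, 0.33 and 0.16, so its day-4 value was under 50% of that of day 1. The same held for Dapma7bEVm004498t1, named after its values were seen, with 0.16, 0.10 and 0.05. Dapma7bEVm011115t1 had unscaled differences of 0.23, 0.24 and 0.25. Its day-2 level was 15.4, 19.3, 18.4 and 19.2 CPM in control, 16.5, 23.7, 18.4 and 16.4 CPM in copper, 20.6, 20.4, 21.5 and 23.1 CPM in arsenic and 21.9, 23.2, 21.7 and 21.4 CPM in the mixture. With the exception of copper replicate 2, every library without arsenic lay below every library with it. Its day-4 level was 15.1, 17.4, 23.6 and 16.3 CPM in control, 21.1, 15.8, 14.02 and 17.0 CPM in copper, 21.3, 22.3, 23.9 and 22.5 CPM in arsenic and 18.6, 20.5, 20.02 and 17.7 CPM in the mixture. The arsenic libraries lay wholly above those of copper and the mixture that day, and control replicate 3 reached their range. The fitted log2 fold changes of arsenic were 0.22 (SE 0.09, edgeR adjusted p = 0.464) on day 2 and 0.19 (SE 0.09, edgeR adjusted p = 0.636) on day 4, so neither passed the test. Their 95% intervals ran from 0.04 to 0.40 and from 0.01 to 0.38. The gene is named for its high estimates on these same days, and the intervals are not corrected for that choice among 50 genes.

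Arsenic was then compared within each copper background. Arsenic alone against control called 0 of the 50 genes on day 2, where 0 of all genes were called (0%) and 760 (4.92%) had an unadjusted p under 0.05, 1 of them a member. DESeq2 called 3 genes and limma 0, none of them members. On day 4 the same comparison called 5 genes, all lower (0.0323%), of which 0 were members. At an unadjusted p under 0.05 stood 6 higher and 3 lower members, against 4.24% higher and 7.14% lower over all genes, and DESeq2 called 27 genes and limma 0, with no member among them. The mixture against copper called 1 gene, lower, on day 2 (0.00647%) and 0 genes on day 4 (0%), in both cases 0 members. At an unadjusted p under 0.05, 4 members were lower on day 2 (5.6% of all genes) and 2 on day 4 (1.56% of all genes), and none was higher. Limma called 0 genes on either day. DESeq2 called 67 genes on day 2, 1 of them a member and lower, and 1 gene on day 4 that was no member. On day 2 the members' fitted log2 fold changes against copper had a median of -0.10, with 13 of 50 above 0. Over all genes tested the median was -0.003, with 49.4% above 0. Among the members Dapma7bEVm011559t1 was lowest, at -1.06 (SE 0.27, edgeR adjusted p = 0.178). Mixture replicates 1 and 2, which stood apart on day 2, were part of this comparison.

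Counts of genes whose 4 libraries did not overlap with the other 4 followed the 2 backgrounds differently in number. On day 1 the arsenic libraries lay above the controls without overlap for 10 members and the mixture above copper for 23, where 0.937% of the 10454 genes did so in each case; the rule used these libraries, so nothing is read from it. On day 2 arsenic lay wholly above control for 3 members (6%), against 1.7% of the 10454 genes, and the mixture wholly above copper for 0 members, against 2.3%. On day 4 the counts were 6 members (12%) against 4.67% for arsenic over control, and 0 members against 2.03% for the mixture over copper. In the opposite direction on day 4, 2 members lay wholly below control (4%, against 1.42%) and 2 wholly below copper (4%, against 0.832%). Dapma7bEVm010103t1 was wholly above control on both days, at 16.5 to 17.7 CPM against 8.34 to 13.7 CPM on day 4. The difference between the 2 backgrounds was tested as the interaction of arsenic and copper, which called 0 members on either day. Over all genes it called 0 on day 2 (0%) and 1 on day 4 (0.00647%). At an unadjusted p under 0.05 stood 4 members on each day, against 5.64% and 7.32% of all genes, or 872 and 1132 genes. DESeq2 called 0 genes on day 2 and 7 on day 4 for the interaction, none of them members, and limma called 0.

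Copper itself called 1 member. On day 2, Dapma7bEVm004192t1 fell with copper 3.12-fold, by 1.64 on the log2 scale (SE 0.28, edgeR adjusted p = 0.0143). It was 1 of 7 genes called lower (0.0453% of all genes), with 0 called higher. Its level was 97.3, 88.6, 77.6 and 72.6 CPM in control and 18.4, 60.2, 17.5 and 19.7 CPM in copper. With arsenic alone it was 58.3, 125, 83.4 and 15.3 CPM, and with the mixture 14.04, 31.0, 24.5 and 17.6 CPM. Every copper and mixture library was below every control, but arsenic replicate 4 was as low as the libraries with copper, and copper replicate 2 was as high as arsenic replicate 1. The call was lost in 6 of 41 alternative fits, among them the one restricted to day 2, where the adjusted p was 0.169, and the one without mixture replicates 1 and 2 of that day. On day 1 the gene had stood at 21.2 ± 2.8 CPM in control and 21.2 ± 1.3 CPM in copper, below each of its day-2 controls. Its day-4 level was 48.4 ± 4.78 CPM in control, 40.7 ± 16.3 CPM in copper, 29.8 ± 5.11 CPM in arsenic and 38.8 ± 8.6 CPM in the mixture, and the log2 fold change with copper was 0.10 (SE 0.28, edgeR adjusted p = 0.943). The 4 arsenic libraries of day 4 (25.7 to 37.0 CPM) lay below the 4 controls (43.4 to 52.8 CPM). Copper called 0 members on day 4, where 21 genes were called (0.136%), with DESeq2 calling 53 genes and limma 32, none of them members.

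More of the 50 genes were called between the later days than between treatments. From day 2 to day 4, in the libraries with arsenic, 14 members rose and 1 fell, that is 28% higher against 7.6% of all genes tested and 9.01% of the 10454 genes of like level. In the lower direction the shares were 7.07% of all genes and 9.87% of genes of like level. Without arsenic 2 members rose and 1 fell. There 4.86% of all genes were higher and 3.18% lower, and 5.96% and 4.45% of the genes of like level. The 14 fold changes lay between 1.17-fold and 2.17-fold. The count with arsenic depended on which libraries were in the fit: without mixture replicates 1 and 2 of day 2 it came to 4 higher and 1 lower. It was 8 in all without mixture replicate 2 of day 2 alone, and 8 without arsenic replicate 2 of day 4. Of the 14 genes, 13 also had an estimate above 0 without arsenic, where 2 were called, and the difference between the 2 changes, which is the change of the arsenic effect given above, was called for none. The day-2 arsenic estimates and these changes share the day-2 libraries, so they are not separate observations.

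**Figure D5:**
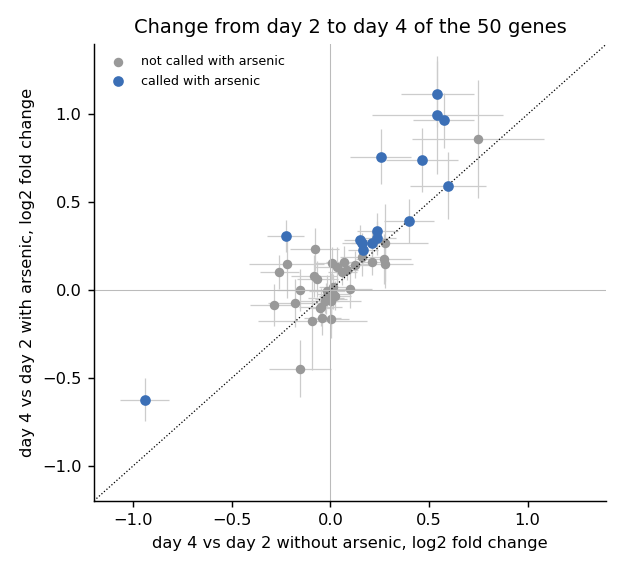
Fitted log2 fold change from day 2 to day 4 of each of the 50 genes without arsenic (horizontal axis) and with arsenic (vertical axis), with bars of 1 SE; blue points are called with arsenic and the dotted line marks equal change. Of 15 blue points 14 lie above 0 on the vertical axis, and 13 of these 14 lie to the right of 0 on the horizontal axis.

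The members that rose most with arsenic present were Dapma7bEVm011559t1 and Dapma7bEVm008173t1. Dapma7bEVm011559t1, whose day-2 values are given above, reached 125, 178, 125 and 193 CPM in control, 139.6, 146, 162 and 132 CPM in copper, 137, 148, 153 and 152 CPM in arsenic and 138, 179, 118 and 156 CPM in the mixture on day 4. It rose 2.17-fold with arsenic (log2 1.12, SE 0.19, edgeR adjusted p = 2.5e-04) and was called under all 40 alternatives. Without arsenic its log2 change was 0.54 (SE 0.18, edgeR adjusted p = 0.0649), and the day-4 levels overlapped between all 4 treatments. Dapma7bEVm008173t1 varied widely between libraries of a group, at 5.48, 17.4, 6.03 and 28.8 CPM in arsenic and 9.01, 28.8, 44.9 and 38.1 CPM in the mixture on day 2. On day 4 it read 38.3, 53.4, 31.0 and 14.5 CPM in arsenic and 49.9, 56.7, 28.7 and 54.7 CPM in the mixture, with overlap between the days. Its rise of 1.99-fold (log2 0.99, SE 0.34, edgeR adjusted p = 0.0437) was lost in 15 of 40 alternatives.

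Dapma7bEVm014913t1 rose with time both without and with arsenic. Its day-4 libraries had 10.2, 10.99, 10.9 and 13.2 CPM in control, 6.79, 9.72, 9.05 and 10.2 CPM in copper, 9.68, 9.72, 11.9 and 7.97 CPM in arsenic and 13.9, 12.8, 8.87 and 9.19 CPM in the mixture. Its log2 change was 0.57 (SE 0.15, edgeR adjusted p = 0.0206) without arsenic and 0.97 (SE 0.16, edgeR adjusted p = 1.99e-04) with it. The call without arsenic was lost in 2 of 40 alternatives: without copper replicate 3 of day 2, and without the 3 libraries that stood apart on day 4, where the adjusted p was 0.0665. Dapma7bEVm000074t1 was the other member that rose without arsenic, from 18.9 ± 4.04 to 23.97 ± 3.38 CPM (SD, n = 8). Its log2 change of 0.40 (SE 0.13, edgeR adjusted p = 0.0481) was lost in 25 of 40 alternatives. With arsenic the gene went from 20.2 ± 4.04 to 26.1 ± 2.995 CPM (log2 0.39, SE 0.13, edgeR adjusted p = 0.0343).

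Dapma7bEVm007321t1 was the member that fell. Its day-2 level stood at 69.3, 71.5, 60.3 and 58.9 CPM in control, 73.8, 47.4, 70.5 and 66.2 CPM in copper, 64.0, 48.3, 56.2 and 50.5 CPM in arsenic and 71.1, 58.2, 64.9 and 67.1 CPM in the mixture. On day 4 the libraries had 23.5, 27.9, 33.1 and 35.3 CPM in control, 31.6, 42.5, 28.9 and 39.2 CPM in copper, 42.1, 35.5, 45.8 and 42.8 CPM in arsenic and 55.7, 31.5, 32.5 and 25.1 CPM in the mixture. Without arsenic the days did not overlap and the gene fell 1.92-fold (log2 -0.94, SE 0.12, edgeR adjusted p = 2.5e-05). With arsenic it fell 1.54-fold (log2 -0.62, SE 0.12, edgeR adjusted p = 0.0012), and mixture replicate 1 of day 4 lay within the day-2 range. Both calls held under all 40 alternatives. The difference of 0.32 between the 2 changes did not pass the test (SE 0.17, edgeR adjusted p = 1.00). On day 1 the gene had read 34.1 ± 2.71 CPM in control and 34.0 ± 6.63 CPM in copper, close to its day-4 level.

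The members varied together only in part. Within groups, the mean pairwise correlation of log2(CPM + 1) among the 50 genes was 0.13 over the 32 libraries of days 2 and 4, against 0.04 among the 10454 genes, and 0.11 against 0.02 over the 16 libraries of day 1. These correlations share libraries and their depth and composition, and are a description. The rule also used the spread among the day-1 libraries, so nothing is read from the day-1 values. Of 1225 pairs of members on days 2 and 4, 83 had a correlation over 0.5 and 363 one below 0, with a lowest value of -0.58. Such counts were not made for pairs of the 10454 genes, so nothing is read from them. The highest was 0.88, between Dapma7bEVm008173t1 and Dapma7bEVm000995t1. Dapma7bEVm000727t1 correlated at 0.82 with both Dapma7bEVm015247t1 and Dapma7bEVm007321t1. Among the 4 genes called on day 1, Dapma7bEVm000727t1 and Dapma7bEVm015247t1 went together most closely, whereas Dapma7bEVm002921t1 and Dapma7bEVm015213t1 had a correlation of 0.05. Dapma7bEVm000995t1 is named after its values were seen.

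Membership in the list was itself sensitive to single libraries. When each day-1 library was left out in turn, 33 to 43 of the 50 genes stayed among the top 50, the lowest number without arsenic replicate 3. TMM-scaled CPM in the rule kept 42, and a pseudocount of 0.5 or a t with unequal variances kept all 50.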

How the data were processed

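Whole-body RNA of Daphnia magna was sequenced in 48 libraries. The deposited table holds counts per transcript identifier, one column per library, and all 48 columns matched a sample by name, with 0 columns not used. The table's name calls the values normalized, but in the deposited file every value is a whole number and the column totals differ 2.53-fold, so the values were treated as raw counts. The authors' table keeps rows above 1 CPM in at least 3 libraries, as read from the values: the lowest third-highest CPM of a row was 1.002. TopHat2 2.1.1, HTSeq and edgeR are named in the submitters' processing notes without their order or settings. No genome build, annotation or strand setting is stated there, so reads of a gene and of an antisense partner cannot be told apart. None of the 72 pairs of libraries within a group matched within sampling noise (lowest chi-square per degree of freedom 9.56).

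The members and gene lists were chosen with earlier results of these data known. Levels are CPM of the column total, and error values are SD. Tests used edgeR 4.0.16 (R 4.3.3) with the quasi-likelihood F test and TMM scaling. They took the 32 libraries of days 2 and 4 in 8 groups, with day 1 left out because it chose the members. TMM factors over all 48 libraries ran from 0.907 to 1.10, and the tests computed theirs anew from the 32 libraries. Genes needed 14 counts in at least 4 libraries, which left 15459 genes and removed 607. The fit had 24 residual degrees of freedom and a biological coefficient of variation of 21.6%. The 13 comparisons were two-sided, each Benjamini-Hochberg adjusted over all genes tested and called at an adjusted p under 0.05. SE was the absolute log2 fold change divided by the square root of F. The procedure was tested on simulated data with planted fold changes, all of them larger than the day-1 differences of most members. That test does not cover smaller differences. Alternatives were all 48 libraries, 1 day alone, DESeq2 1.42.0 and its size factors, limma 3.58.1 on log2(CPM + 1), no filter, the replicate number as a block, each library left out, and, chosen after seeing the data, the libraries that stood apart left out.

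Genes are named by rule: the 2 highest day-1 t and the genes on both sides of the limit; the 2 highest and 2 lowest mean levels; in each comparison the 2 highest and 2 lowest fold changes among called members, or among all members for the comparisons of arsenic with no arsenic; and the 2 highest and 2 lowest by the smaller of the day-2 and day-4 arsenic fold changes. No arsenic-response list could be counted, because 0 identifiers matched the reference gene table.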

Additional observations from a re-analysis of the deposited data

Results flagged for a closer look

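In 8 of 204 groups of 4 libraries, 1 library lay far from the other 3 by Dixon's criterion, where chance gives 10.2 such groups at 1 in 20. The groups were those of the members' mean level and of the 16 genes named by rule. In the arsenic group of day 4, the lowest library had a mean log2(CPM + 1) of 5.24 over the 50 genes. Dapma7bEVm015247t1 stood at 185 CPM in copper replicate 4 of day 1 and at 197 CPM in control replicate 1 of day 4, in each case below the other 3. Dapma7bEVm016398t1 was at 5.58 CPM in control replicate 4 of day 2, below the other 3. Dapma7bEVm010103t1 was at 8.34 CPM in control replicate 2 of day 4, below the other 3. Dapma7bEVm004192t1 was at 60.2 CPM in copper replicate 2 of day 2, above the other 3. Dapma7bEVm000074t1 had 12.4 CPM in mixture replicate 1 of day 1, below the other 3, and 26.7 CPM in arsenic replicate 2 of day 2, above them.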

How the results depend on the processing

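In 9 of 13 comparisons 0 members were called under every alternative run. None of the 15 fold changes by which a gene was named in a comparison changed sign. DESeq2 called 1 member for the mixture against copper on day 2. For copper on day 2 the count was 0 with that day's libraries alone and 0 without mixture replicates 1 and 2 of day 2. Leaving out single libraries gave 0 to 1, with 0 without copper replicate 3 or 4, arsenic replicate 3 or mixture replicate 1 of day 2. For day 4 against day 2 without arsenic, DESeq2 size factors gave 5 members, DESeq2 8, and the fit without the 3 libraries that stood apart on day 4 gave 1. Leaving out single libraries gave 1 to 7: 1 without copper replicate 3 of day 2, 5 without copper replicate 1 of day 2, 5 with day-4 control replicate 1 left out, and 7 with day-4 control replicate 3 left out. With arsenic it was 5 without mixture replicates 1 and 2 of day 2, and 8 to 16 without single libraries. The median log2 fold change of the members with arsenic ran from -0.10 to -0.04 on day 2 and from -0.0045 to 0.05 on day 4 when single libraries were left out, so its sign on day 4 is not fixed. Choosing the 50 genes again without single day-1 libraries kept 33 to 43 of them. The cause of these changes was not tested.

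With the replicate number as a block, the counts were 1 for copper on day 2, 2 without arsenic and 13 with it for day 4 against day 2, and 0 elsewhere. Whether the replicate numbers pair the samples was not settled. In 1 of 12 pairs of groups, control and mixture of day 2, every correlation of same-numbered libraries was over 0.1. Over all pairs the correlations ran from -0.37 to 0.43. Taken as deviations from means of 4 libraries, they cannot show that a pairing is absent. Of 609 alternative values of named genes, 561 kept their side of the threshold and 48 lost the call. The values for arsenic against no arsenic were called in no fit, so they had no call to lose. All 48 losses came from the copper and time comparisons. Without arsenic these ran from 0 of 40 for Dapma7bEVm007321t1 to 25 of 40 for Dapma7bEVm000074t1. Over all genes, counts moved more between tools: arsenic on day 2 gave 0 by edgeR and 37 by DESeq2, copper on day 2 gave 7 by edgeR, 79 by DESeq2 and 24 by limma, and arsenic against control on day 4 gave 5 by edgeR, 27 by DESeq2 and 0 by limma. The median SE of a member was 0.11 for arsenic against no arsenic, 0.15 for arsenic against control and 0.22 for the interaction. With 4 libraries a group, small log2 differences were not detectable.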
